A study of Mus musculus with 2 samples.

Results

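Microglia, the resident macrophages of the brain, were taken from single-cell RNA libraries of the newborn mouse dentate gyrus and described cell by cell. Members were chosen by measured values. A barcode was kept with 500 or more genes, 1000 or more UMIs and no more than 10% of UMIs from mitochondrial genes, and had to show at least 1 UMI for 4 or more of 8 gate genes: C1qa, C1qb, C1qc, Csf1r, Cx3cr1, P2ry12, Trem2 and Fcer1g. It could hold at most 2 UMIs of the endothelial genes Cldn5 and Flt1 together. A UMI is a molecular tag that counts 1 captured transcript. The rule selected 66 of the 4996 kept barcodes: 40 of 3029 control and 26 of 1967 KO barcodes.

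The study dissected dentate gyri on postnatal day 2 and sequenced 1 droplet library per genotype. The KO library came from mice with the hGFAP-Cre transgene and the Kdm6bF/F genotype (both Kdm6b alleles flanked by recombination sites). The control library came from littermates, labelled WT, whose exact alleles the labels do not state. Each library pooled 2 animals, so the animals cannot be told apart and every difference below compares 2 libraries, not 2 genotypes. No test between libraries was possible and no p-value is given. All intervals are 95% intervals that cover counting error only and take each UMI as independent, although UMIs of the same cell are not.

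Microglia arise from yolk sac progenitors that enter the brain before birth, outside the neural lineage. The hGFAP-Cre transgene is active in radial glia and reaches the neurons, astrocytes and oligodendrocytes that descend from them, a lineage that does not include microglia. Newborn microglia clear dying cells, act on synapses, release growth factors and depend on signals such as CSF1, IL-34 and TGF beta from their neighbours. KDM6B, the product of Kdm6b, removes methyl groups from lysine 27 of histone H3 and is also studied in macrophage activation.

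Markers that the rule did not use were present in the members. Each of the 66 had a UMI for 4 or more of 18 genes of homeostatic microglia, such as Cst3, Fcrls, Gpr34 and Tmem119, and 27 of 40 control and 20 of 26 KO members had 10 or more. Neutrophil and mast cell genes had 0 UMIs in both libraries. The gate divided the barcodes sharply, with all 8 genes in 30 control and 18 KO barcodes and 0 genes in 2873 and 1896. Just outside the threshold lay 1 control and 1 KO barcode with 3 gate genes and few endothelial UMIs, each with 4 gate UMIs and 3 homeostatic genes. Barcodes with 2 gate genes reached 8 homeostatic genes if control and 6 if KO, so 4 homeostatic genes alone do not set members apart. Just inside lay 2 KO barcodes with 4 gate genes, which held 7 and 22 gate UMIs. Members with all 8 genes had a median of 87.5 gate UMIs if control and 113 if KO.

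**Figure D1:**
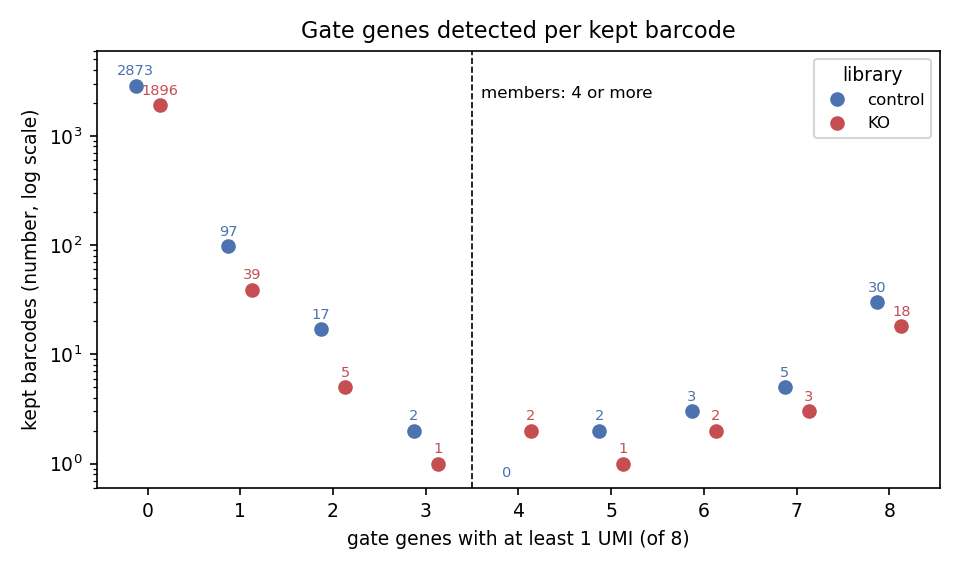
Number of barcodes that passed the filters (log axis) against the number of gate genes with at least 1 UMI, for the control library (blue) and the KO library (red), each count printed at its point. Counts are 0 to 2 at 3 to 5 genes and reach 30 and 18 at 8 genes, and the dashed line marks the threshold.

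Some members held RNA of other cells as well. A member was called mixed when it held 10 or more UMIs of the neuron, radial glia and astrocyte, oligodendrocyte lineage, mural, fibroblast or endothelial list, a criterion set after the values were seen. That applied to 5 control and 4 KO members. The deepest control member, with 36961 UMIs and 17.8% of all UMIs of the control members, held 1087 UMIs of the neuron list, and another control member held 595 UMIs of the radial glia list. The deepest KO member, with 23532 UMIs and 13.6% of the KO total, held 386 neuron UMIs. Of the other mixed KO members, 1 held 151 radial glia UMIs and 1 held 119 UMIs of the mural list. Outside the mixed members the highest values were 4 neuron UMIs and 8 radial glia UMIs in a cell. Ratios between libraries are therefore given for all 66 members and again for the 35 control and 22 KO members that were not mixed. A further control member, not counted as mixed and called dividing below, held 1799 UMIs of haemoglobin and other erythroid genes. No member's barcode occurred in both libraries, although 9 barcodes of the deposited matrices did.

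The promoters of 4 genes are shown because these genes mark the main patterns below. C1qb marks identity, Spp1 and Pf4 mark small groups of cells, and Il1a is the cytokine gene with the lowest ratio. Each run is the 200 bases before the RefSeq transcript start (build GRCm38.p6), written 5′ to 3′ on the gene's own strand, with GAGGAA or its reverse complement TTCCTC in capitals.
C1qb, chr4:136886201-136886400, minus strand: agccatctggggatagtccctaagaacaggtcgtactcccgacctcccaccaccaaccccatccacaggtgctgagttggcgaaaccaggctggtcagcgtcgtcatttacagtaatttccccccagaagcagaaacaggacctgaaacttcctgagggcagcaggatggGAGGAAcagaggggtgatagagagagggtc
Spp1, chr5:104434911-104435110, plus strand: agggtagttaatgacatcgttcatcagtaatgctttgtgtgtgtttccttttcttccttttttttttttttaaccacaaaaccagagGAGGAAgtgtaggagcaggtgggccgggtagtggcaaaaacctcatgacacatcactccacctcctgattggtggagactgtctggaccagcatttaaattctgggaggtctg
Il1a, chr2:129309973-129310172, minus strand: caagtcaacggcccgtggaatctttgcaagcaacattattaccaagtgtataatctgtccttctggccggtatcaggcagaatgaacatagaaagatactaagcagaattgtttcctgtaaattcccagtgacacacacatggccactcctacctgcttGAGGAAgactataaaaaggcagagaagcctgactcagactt
Pf4, chr5:90772235-90772434, plus strand: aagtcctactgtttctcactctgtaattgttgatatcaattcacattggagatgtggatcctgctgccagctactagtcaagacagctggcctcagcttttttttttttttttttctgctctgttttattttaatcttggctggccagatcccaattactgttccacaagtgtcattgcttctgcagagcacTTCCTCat
GAGGAA is the core of the motif of PU.1, the transcription factor that macrophages require. The longer form GAGGAAGT, searched on both strands and always overlapping a GAGGAA, was found in 9 of the 41 windows of 300 bases (250 before and 50 after the start) of the 50 genes most above the other cells in microglia. That is 22.0% of them, against 3.2% of all 32851 windows in the table. The short form was found in 24 of the 41 windows (58.5%), against 28.3% of all windows. The promoters shown were taken from windows with a match, so they do not show how common it is. A match describes the letters in the window and is not evidence of binding.

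Summed over members, control members held 207586 UMIs and KO members 172998. Control members had a median of 4196.5 UMIs and 1680 genes (lowest 1142, highest 36961 UMIs), and KO members a median of 5365 UMIs and 2159 genes (lowest 1412, highest 23532 UMIs). Mitochondrial genes took 4.49% and 4.60% of the UMIs. Y-linked genes had UMIs in 8 of 40 control members and in 0 of 26 KO members, which allows a share of up to 11.5%. Xist, the RNA of the inactive X chromosome, had UMIs in 22 control and 23 KO members. Among the barcodes that were not members, Y-linked genes took 0.00868% of the control UMIs and 1.54e-05% of the KO UMIs. The libraries as a whole thus differed in Y-linked RNA, with nearly none in the KO library. The labels do not give the animals' sex, and a difference of sex between the libraries and the genotype cannot be told apart. The 21 control and 23 KO members with Xist and no Y-linked UMI give values on a like basis where these are named.

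Kdm6b, the targeted gene (ENSMUSG00000018476, chromosome 11, 69398508 to 69413675, GRCm38), had 30 UMIs in control and 19 in KO members, in 16 and 12 cells. The ratio of KO to control was 0.767, with an interval of 0.404 to 1.4 that includes 1, and the log2 ratio was -0.38, or -0.78 without mixed members. Among the other barcodes the log2 ratio was -0.00 and in endothelial cells 0.33. The part of the gene flanked by recombination sites is not given in the labels, and reads from the 3′ end of a transcript need not fall in it, so these counts do not check the deletion. Prm1, a sperm histone substitute whose 3′ end serves in many transgenes as a polyadenylation signal, had a CPM (UMIs per 1000000 UMIs) of 0.308 in the other control barcodes and 431 in the other KO barcodes. Whether the transgene used here carries it is not given in the labels. In KO microglia Prm1 had 24 UMIs, 21 of them in 1 cell, and 2 UMIs remained in the KO members that were not mixed, with 0 in all control members.

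The complement genes had the highest sums of the gate. As gate genes they chose the cells, so their detection in members, and their scarcity in neurons and endothelial cells limited to 1 gate gene, are descriptions. C1qa, C1qb and C1qc encode the chains of C1q, the recognition molecule of the classical complement pathway, and lie side by side on chromosome 4 (136880129 to 136898803 from the first to the last base of the trio). C1qa had 627 UMIs in control members and 566 in KO members. Per control cell the lowest value was 3, the median 15.5 and the highest 46 UMIs, and per KO cell 0, 19.5 and 52. The C1qa ratio was 0.12 on the log2 scale for all members and -0.06 without mixed members. C1qb had 779 and 569 UMIs (log2 ratio -0.19, or -0.35 without mixed members) and C1qc 636 and 529 (-0.00, or -0.17). C1qa was detected in 40 of 40 control and 25 of 26 KO members, and the 1 KO member without any of the trio was the one with monocyte genes described below. After each cell was thinned to 1000 UMIs, C1qa was still found in 97.5% and 88.5% of members. The same thinned share was 0.146% of control neurons and 0% of KO neurons and of endothelial cells in both libraries, with median depths before thinning 8695 and 11868 UMIs in neurons, 22735 and 20044 in endothelial cells.

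The receptors of the gate had fewer UMIs per cell. Csf1r, the receptor for CSF1 and IL-34 on which microglial survival depends, had 233 and 198 UMIs (log2 ratio 0.03). Cx3cr1, the receptor for the neuronal chemokine fractalkine, had 220 UMIs in control members, with a median of 5 and a highest value of 31 per cell. KO members held 264 Cx3cr1 UMIs, with a median of 10.5 and a highest value of 34. Its log2 ratio was 0.53 (ratio interval 1.20 to 1.73), 0.37 without mixed members and -0.00 among members with Xist and no Y-linked UMI. P2ry12, the ADP receptor that steers microglial processes, went the other way, with 230 UMIs in control (median 5, highest 19 per cell) and 138 in KO members (median 3.5, highest 25). Its log2 ratio was -0.47, and -0.68 without mixed members (ratio interval 0.495 to 0.780). Among members with Xist and no Y-linked UMI the P2ry12 log2 ratio was -1.05. The cells of the libraries overlapped fully for both receptors. Trem2, a lipid receptor of phagocytes, had 233 and 199 UMIs (0.04), and Fcer1g, an adaptor of Fc receptors, 290 and 279 (0.21).

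For ligands of these receptors and of the TGF beta receptors, levels were compared with those in neurons and endothelial cells. Cx3cl1 (fractalkine) had 1 UMI in control and 0 in KO microglia, which allows up to 17.3 CPM in KO, against 30.1 and 24.8 CPM in neurons. Il34 had 1 UMI in the microglia of each library and 40.3 and 30.1 CPM in endothelial cells. Csf1 had a higher level in microglia, 246 and 249 CPM, against 31.7 and 29.3 in endothelial cells and 3.02 and 3.83 in neurons. By count most Csf1 UMIs lay in other barcodes, 317 against 51 (control) and 281 against 43 (KO). Tgfb1, the factor that maintains the microglial state, was at 145 and 208 CPM in microglia and 159 and 178 in endothelial cells. Tgfb2 was mainly neuronal (113 and 127 CPM), and the 9 and 6 UMIs it had in microglia all lay in mixed members.

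**Figure D2:**
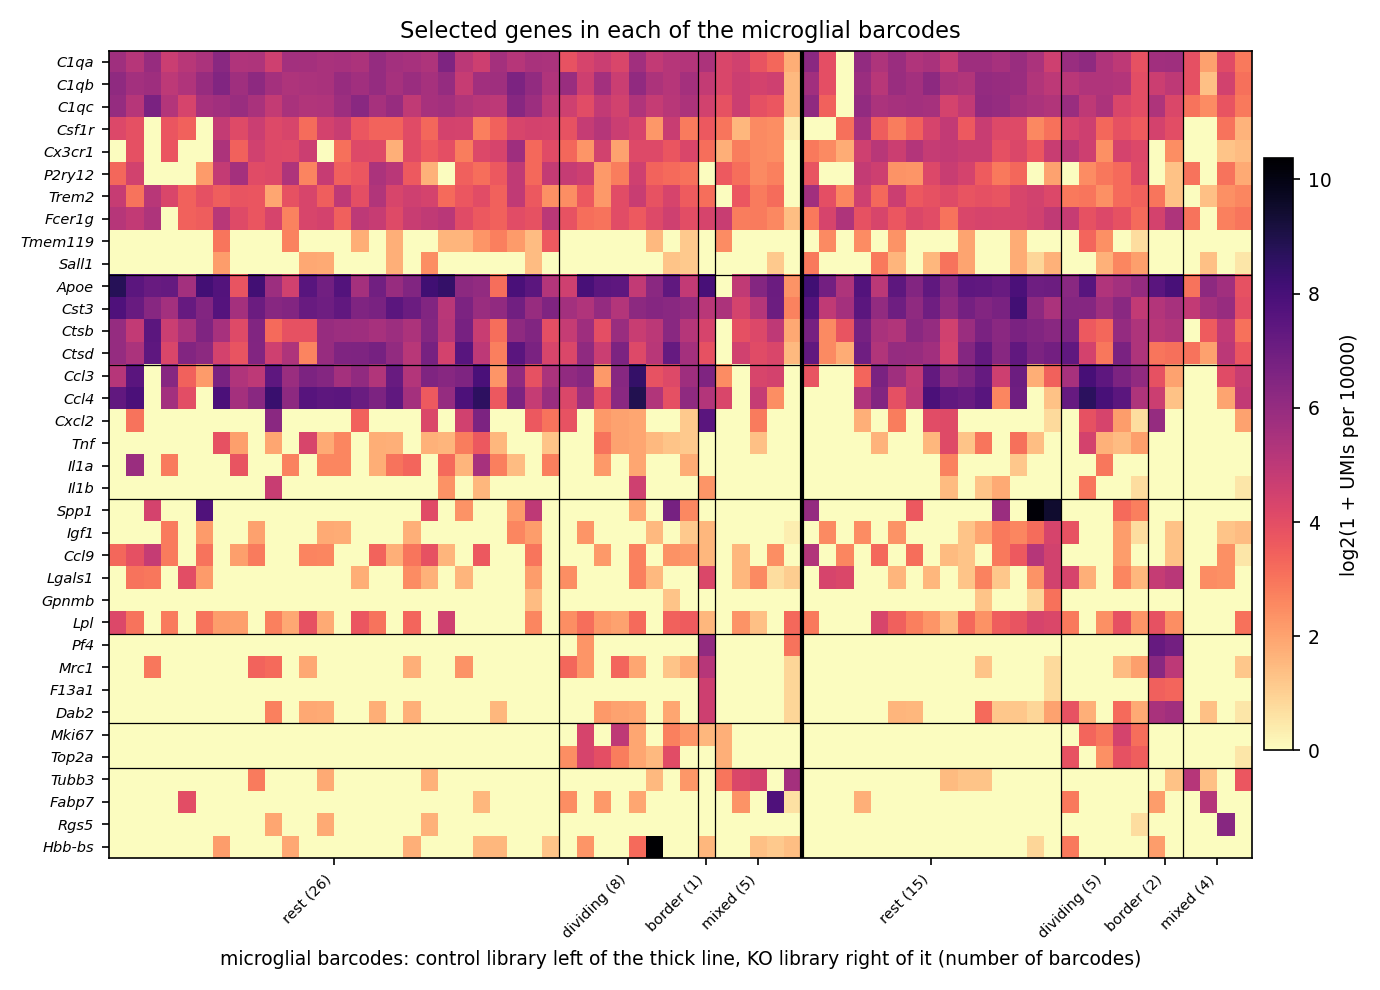
Each column is 1 of the 66 microglial barcodes (40 control left of the thick line, 26 KO right of it), sorted into barcodes with no further mark (rest), dividing, border macrophage marked and mixed, and each row is a gene, coloured by log2(1 + UMIs per 10000 UMIs of the cell). C1qa, C1qb and C1qc fill nearly every column, Ccl3 and Ccl4 are high in most, and Spp1, Pf4 and Hbb-bs are very high in 1 to 3 columns each.

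Against all other barcodes, microglia stood out for sensors, chemokines and lysosomal genes. Since the cells were chosen by marker genes, these values describe them and are not tests. Of 3151 genes with at least 20 UMIs, 359 (11.4%) were at least 4-fold above the other barcodes in both libraries. The 20 genes furthest above, gate genes aside, had mean log2 differences of 10.47 (Mpeg1, a pore-forming protein of macrophages) to 13.93 (Cd86, a costimulatory ligand for T cells). Among them were 6 genes of secreted chemokines of the CCL family: Ccl12, Ccl4, Ccl3, Ccl2, Ccl7 and Ccl9. Further members of this group were the cytokine Il1a, the complement receptors C3ar1 and C5ar1, the lectin Siglech, the receptor Gpr34 and the protease Ctss. Of the gene lists, 14 of 17 homeostatic genes, 13 of 14 chemokine and cytokine genes and 17 of 23 lysosomal genes passed 4-fold.

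Several abundant transcripts were those of lipid transport, secretion and lysosomes. The highest sums were those of Tmsb4x, which binds actin (3683 and 3714 UMIs), the nuclear RNA Malat1 (2593 and 2291) and the ferritin gene Ftl1 (2440 and 2807). Apoe, which carries lipids between cells, had 2143 UMIs in control members and 1876 in KO members, with medians of 39.5 and 50 per cell and highest values of 214 and 183. It was also present in other cells, at 1212 and 897 CPM against 10323 and 10844 in microglia. Cst3, a secreted inhibitor of cathepsins, had 1539 and 1268 UMIs, and the lysosomal protease Ctsd 973 and 1053. Tmem119, a membrane protein of mature microglia, was low, with 28 UMIs in 14 control cells and 16 in 8 KO cells. Sall1, the transcription factor that sets microglia apart from other macrophages, had 11 UMIs in 9 control cells and 29 UMIs in 14 KO cells (log2 ratio 1.62, ratio interval 1.53 to 7.02).

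A part of the microglia was dividing in both libraries. With at least 3 detected genes of a list for the G2/M phases, in which cells prepare for and enter mitosis, 9 of 40 control members (22.5%, interval 10.8 to 38.5) and 7 of 26 KO members (26.9%, 11.6 to 47.8) were called dividing. The ratio of the shares was 1.20, with an interval of 0.379 to 3.61. After thinning to 1000 UMIs, 7 control and 5 KO members met the criterion. Setting aside mixed and border macrophage marked members, 13 dividing cells of both libraries together were compared with 41 others. The criterion used Mki67 (54 UMIs against 0) and Top2a (53 against 0), so these describe the choice. Genes outside the list were also higher: Pclaf, a partner of the replication clamp, had 46 UMIs against 0, Hist1h2ap, a replication histone, 55 against 1 and H2afz, a histone variant, 242 against 129 (log2 difference 2.43). Dividing cells held as much Csf1r (0.06) and less C1qc (-0.70) and Apoe (-0.62). Their sums of Ccl3 (607 UMIs, 0.50) and Ccl4 (781 UMIs, 0.31) were higher, but single cells held 125, 110 and 104 of the Ccl3 UMIs. The cells compared with them include Spp1-rich cells described below, which held little Ccl3 and Ccl4. These values pool both libraries and need not hold within each.

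Of all members, 3 cells carried most genes of border macrophages, the macrophages of the meninges and vessels. With 3 or more of 10 border genes there were 5 control and 6 KO members. With 7 or more there were 1 control and 2 KO members, and all had met the microglial gate through C1q, Fcer1g and other genes that both kinds of macrophage express. The control cell held 33 Pf4, 18 Mrc1 and 12 F13a1 UMIs, and the KO cells 43 and 77 Pf4 with 23 and 21 Mrc1 UMIs. Since border genes chose these cells, their higher values describe the choice. Against the 54 other members that were not mixed, the 3 cells held 153 UMIs against 1 of Pf4 (platelet factor 4, a chemokine), 27 against 0 of Lyve1 (a hyaluronan receptor) and 62 against 29 of Mrc1 (the mannose receptor). Of genes that did not choose them within the members, P2ry12 had 1 UMI against 334 and Sparc, a matrix protein of the homeostatic list, 0 against 353 (upper limit of the ratio 0.185). Siglech had 0 against 75 (upper limit 0.888). The 0 UMIs of Sall1 and Tmem119 were within counting error of the other members' levels, and Csf1r was close to level (0.04). For these 3 cells the P2ry12 and Sparc values go against the label of microglia. A further KO member with 4 gate genes held 59 UMIs of Lyz2 (lysozyme) and 31 of Plac8 together with 5 genes of the monocyte list, and 0 UMIs of C1qa.

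Osteopontin, the product of Spp1, was concentrated in a few cells. Spp1 (ENSMUSG00000029304, chromosome 5, 104435118 to 104441050) had 177 UMIs in 9 of 40 control members and 2505 UMIs in 7 of 26 KO members. In the KO library 2 cells held 1485 and 946 UMIs, and 24 KO members held 74 UMIs together. The highest control cells held 79 and 61. The log2 ratio of 4.08 (ratio interval 14.6 to 19.9) therefore rests on those 2 KO cells, and without them it was -0.76. Without the barcodes of the highest Scrublet doublet scores the log2 ratio was 2.74. Those scores marked 4 control members and 1 KO member, and the KO member was not a mixed one. Similar numbers of cells were Spp1 positive in both libraries (22.5% and 26.9%, and 17.5% and 19.2% after thinning). After the same thinning Spp1 was found in 0% of endothelial cells of both libraries and of KO neurons, and in 0.0488% of control neurons.

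Cells with 10 or more Spp1 UMIs numbered 7, after mixed and border marked members were set aside, and were compared with 47 others. The 2 richest KO cells hold much of these sums, so values follow for all 7 and for the other 5, the latter a comparison added after the data were seen. The growth factor Igf1 was at 44 UMIs against 28 (log2 difference 2.67), the chemokine Ccl9 at 93 against 65 (2.54), the protease Ctsl at 250 against 244 (2.06), the fatty acid carrier Fabp5 at 25 against 22 (2.21) and the lipase Lpl at 69 against 111 (1.34). The 2 richest cells held 36 of the 44 Igf1 UMIs, 73 of the 93 Ccl9 UMIs and 20 of the 25 Fabp5 UMIs, and Igf1 and Fabp5 were each found in 5 of the 7 cells. In the other 5 cells the log2 differences were 1.29 for Igf1, 1.36 for Ccl9, 1.91 for Ctsl, 1.01 for Fabp5 and 0.66 for Lpl, and the ratio intervals left out 1 for Ccl9 (1.45 to 4.23) and Ctsl (2.96 to 4.7) alone. Igf1, Ctsl, Fabp5 and Lpl are on the list for the state described for microglia of proliferative regions and axon tracts, and so are Ccl3 and Ccl4, which had lower values in the same cells. The lower values in the 7 cells were those of Ccl4 (32 against 2556, log2 difference -4.27), Ccl3 (57 against 1787, -2.93), Ccl2 (13 against 863, -3.97), P2ry12 (23 against 311, -1.70) and Tmem119 (1 against 41, -2.76). In the other 5 cells Ccl4 was at -3.35, Ccl3 at -2.39, Ccl2 at -5.39 and P2ry12 at -0.96. Tmem119 had 1 UMI in those 5 cells (-1.75), with a ratio interval of 0.00496 to 1.18 that includes 1. Il1a had 0 UMIs against 74. C1qa (-0.11) and C1qb (-0.08) were close to level. Both libraries are pooled in these comparisons of Spp1-rich cells, so the values need not hold within each library. Igf1 and Il1a also differed between the libraries, as given below. Over the 66 members, thinned Spp1 counts were most like those of Ccl9 (Pearson r of 0.80), as a description that 2 cells can set.

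Microglia took the same share of both libraries. They were 1.32% of the control barcodes (interval 0.945 to 1.79) and 1.32% of the KO barcodes (0.865 to 1.93), a ratio of 1.0 with an interval of 0.586 to 1.68. Without mixed members the ratio was 0.968 (0.541 to 1.70). The interval leaves room for a difference of more than 1.5-fold in either direction.

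Between the libraries, UMIs were summed over members and the ratio was taken on the log2 CPM scale, with 0.5 UMI added to each sum. Of 3151 genes with at least 20 UMIs, 435 (13.8%) were at least 1.5-fold higher in the KO library and 547 (17.4%) at least 1.5-fold lower. The median over all genes was -0.01. Without mixed members, 297 of 2139 genes (13.9%) were higher and 273 (12.8%) lower, with a median of 0.02. These percentages are the background for the lists below. Of the 12 genes most above in the KO library 8 stayed among the 12 most above without mixed members, but of the 12 most below 1 stayed, which was Il1a. The other 11 were genes of neurons and radial glia, such as Tuba1a (824 and 122 UMIs, of which 645 lay in 1 control cell), Fabp7 (363 and 26, of which 352 lay in 1 control cell) and Tubb3 (212 and 38, 179 in 1 control cell). Rgs5, a mural gene, was among the 12 most above with 3 and 57 UMIs, 56 of them in 1 mixed KO cell.

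**Figure D3:**
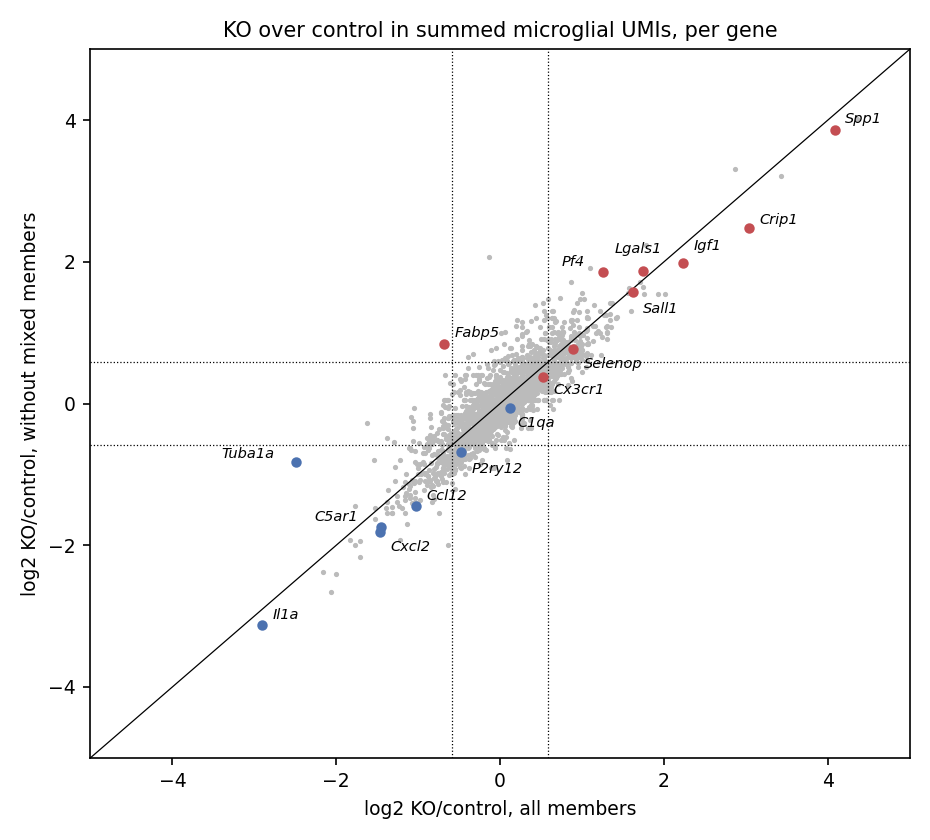
Log2 ratio of KO to control per gene, for all members (horizontal) and without mixed members (vertical), for genes with at least 20 UMIs in both sets, of which 2135 lie within the axes and 4 outside, with selected genes labelled (red above 0 and blue below 0 on the vertical axis) and dotted lines at 1.5-fold. Of the labelled genes Spp1 and Il1a lie furthest out on both axes, while Tuba1a moves from -2.49 to -0.82 and Fabp5 from -0.69 to 0.85.

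Higher values in the KO library were of 2 kinds, those held by a few cells and those spread over many. Igf1 had 16 UMIs in control members (highest cell 3) and 64 in KO members (highest cell 26), with a log2 ratio of 2.23, 1.99 without mixed members and 1.28 without the 2 richest Spp1 cells. Lgals1, a galectin, had 35 and 99 UMIs in 17 cells of each library (1.75, and 1.86 without mixed members). Its log2 ratio was 1.12 without members with 3 or more border genes and 2.59 among members with Xist and no Y-linked UMI. Crip1, a small zinc-binding protein, had 7 UMIs in 4 control cells and 51 in 12 KO cells (3.04), and 30 of these lay in the KO member with monocyte genes. With 5 or more gate genes required, which leaves out that member, the log2 ratio was 1.49. Dab2, an endocytic adaptor of the border macrophage list, had 27 and 76 UMIs (1.74), and 1.24 without the 3 border marked cells. Pf4 had 60 and 120 UMIs (1.26), all 120 of them in the 2 border marked KO cells and 33 and 26 of the control UMIs in the border marked and the deepest mixed cell, and without the border marked cells KO members held 0 Pf4 UMIs. Selenop, a selenium carrier, was high in nearly all cells, with 479 UMIs in 40 control cells (median 9, highest 43) and 740 in 25 KO cells (median 20.5, highest 151). Its log2 ratio was 0.89, 0.77 without mixed members, 0.47 among members with Xist and no Y-linked UMI, 0.28 after thinning to 1000 UMIs and 0.41 as a mean of fractions per cell. Ccl6 (51 and 103 UMIs, 1.27), Ccl9 (60 and 112, 1.16), Mt2 (17 and 43, 1.58) and Rnase4 (36 and 63, 1.06) completed the group, and Ccl9 was at -0.12 without the 2 richest Spp1 cells.

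Il1a, the gene of the cytokine IL-1 alpha, was the microglial gene with the lowest ratio. It lies on chromosome 2 (129299610 to 129309972) and had 67 UMIs in control members and 7 in KO members. A UMI was found in 18 of 40 control cells, with a highest value of 23, and in 3 of 26 KO cells, with a highest value of 3. The log2 ratio was -2.91 (ratio interval 0.0485 to 0.273) and -3.12 without mixed members. It was -2.97 among members with Xist and no Y-linked UMI, and it was below 0 in all 15 alternatives that gave a value, from -3.22 to -1.27. Both libraries held many cells without the gene, so the distributions overlapped at 0. Il1a was at 0.123 CPM in the other control barcodes and at 0 in the other KO barcodes, far below the level in microglia.

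**Figure D4:**
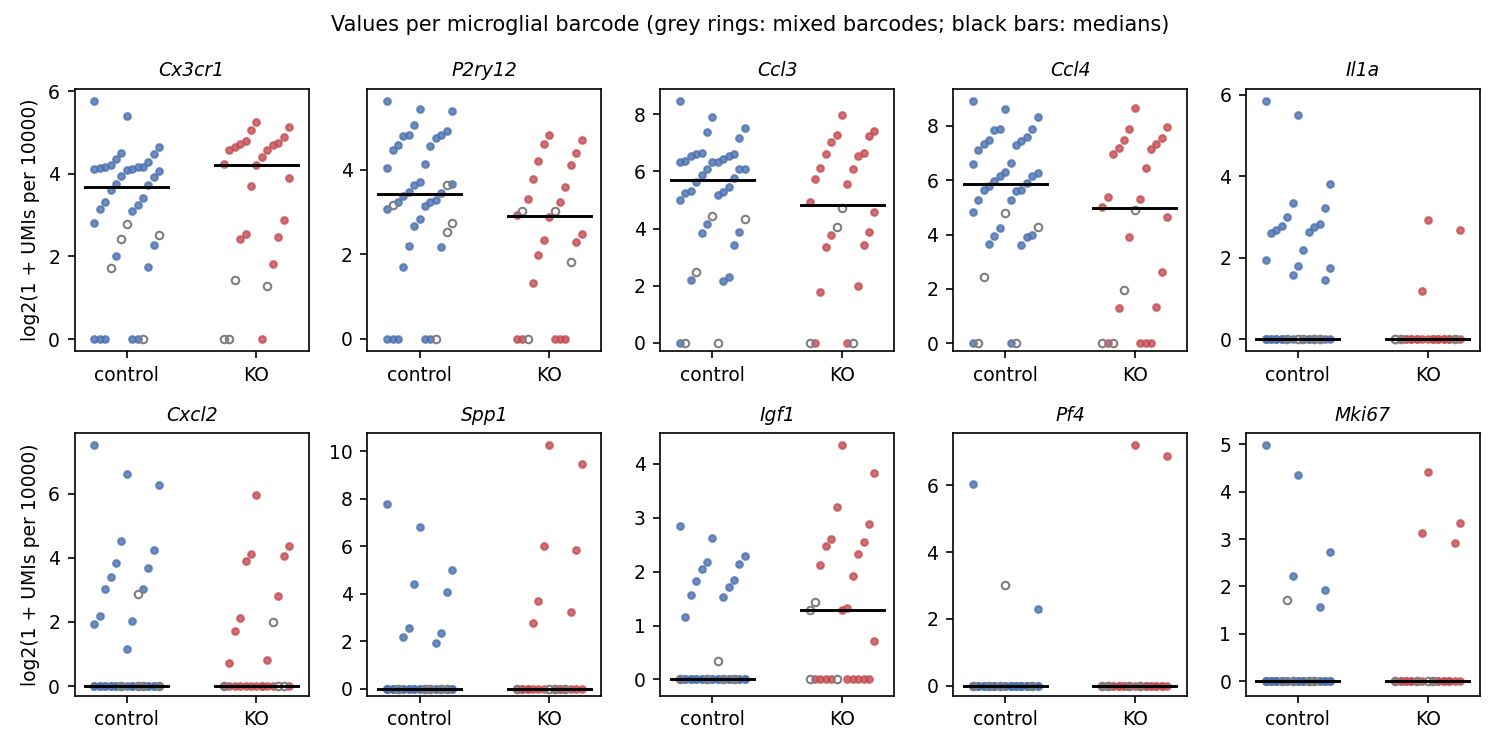
Values of 10 genes in each microglial barcode, as log2(1 + UMIs per 10000 UMIs of the cell), with control in blue, KO in red, mixed barcodes as grey rings and medians over all members as black bars. Cells of the 2 libraries overlap for every gene, Il1a is above 0 in 18 control and 3 KO cells, and Spp1 and Pf4 are carried by few cells.

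The chemokine and cytokine list as a whole held 14 genes with enough UMIs. Of these 2 were at least 1.5-fold higher (Ccl6 and Ccl9) and 5 lower in the KO library, against the background of 13.8% and 17.4%, and the median log2 ratio was -0.15 (-0.41 without mixed members). With stricter filters (1000 or more genes and up to 5% mitochondrial UMIs) the median of 12 genes was 0.90, in the other direction. Ccl3 and Ccl4, chemokines that attract other leukocytes, were the most abundant. Ccl3 had 1063 UMIs in control (median 20, highest 125 per cell) and 952 in KO members (median 16.5, highest 110). Ccl4 had 1535 (median 20.5, highest 203) and 1182 (median 16.5, highest 174). Their log2 ratios were 0.10 and -0.11, and -0.16 and -0.39 without mixed members. Cxcl2, a neutrophil attractant, had 216 UMIs in 15 control cells and 65 in 11 KO cells (-1.46), with 92 UMIs in 1 control cell. Ccl12 had 159 UMIs in 25 control cells and 65 in 9 KO cells (-1.02), with 73 in 1 control cell. Both turned above 0 (0.88 and 0.92) among the 19 control and 15 KO members that passed the stricter filters. Tnf was level by count, with 39 and 41 UMIs. Immediate early genes, which tissue dissociation is known to induce, were measured beside them: 3 of 22 were higher and 4 lower, with a median of -0.13 (-0.36 without mixed members, 0.32 with the stricter filters), and Fos had 188 and 104 UMIs. Their part in the chemokine values was not tested.

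In sums over members, genes of DNA replication had lower values in KO microglia, and genes of mitosis did not. Of the S phase list, 6 of 20 genes had enough UMIs, and all 6 were at least 1.5-fold lower, with a median of -1.67. The background for lower genes was 17.4%. Pcna, the replication clamp, had 22 UMIs in 16 control cells and 5 in 4 KO cells (-1.77). Slbp, which binds histone messages, had 26 and 9 UMIs (-1.22), and the helicase subunits Mcm3 and Mcm6 had 21 and 11 (-0.64) and 17 and 3 (-2.06). The whole list had 219 UMIs in control members (0.106% of their UMIs; 0, 4 and 26 per cell as lowest, median and highest) and 72 in KO members (0.0416%; 0, 2.5 and 9). Without mixed members 3 genes were left, with a median of -1.92. The same genes had medians of -0.48 in endothelial cells and -0.38 in all other barcodes. Without dividing members 2 genes had enough UMIs, with a median of -0.49, and without members with 3 or more border macrophage genes 3 did, with a median of -0.76, so these medians are not over the same genes. The G2/M list had 5 of 11 genes higher and 1 lower (median 0.57), beside backgrounds of 13.8% and 17.4%. Without mixed members 3 of 11 were higher and 1 lower (median 0.39), beside backgrounds of 13.9% and 12.8%. Control members held 270 UMIs of the whole G2/M list (0, 0 and 58 per cell as lowest, median and highest). KO members held 290 (0, 1 and 139), so 1 KO cell held 139 of the 290. The difference between the 2 lists rests on the 6 and 11 genes with enough UMIs, and for G2/M on few cells. Each S phase gene had at most 26 UMIs in a library.

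**Figure D5:**
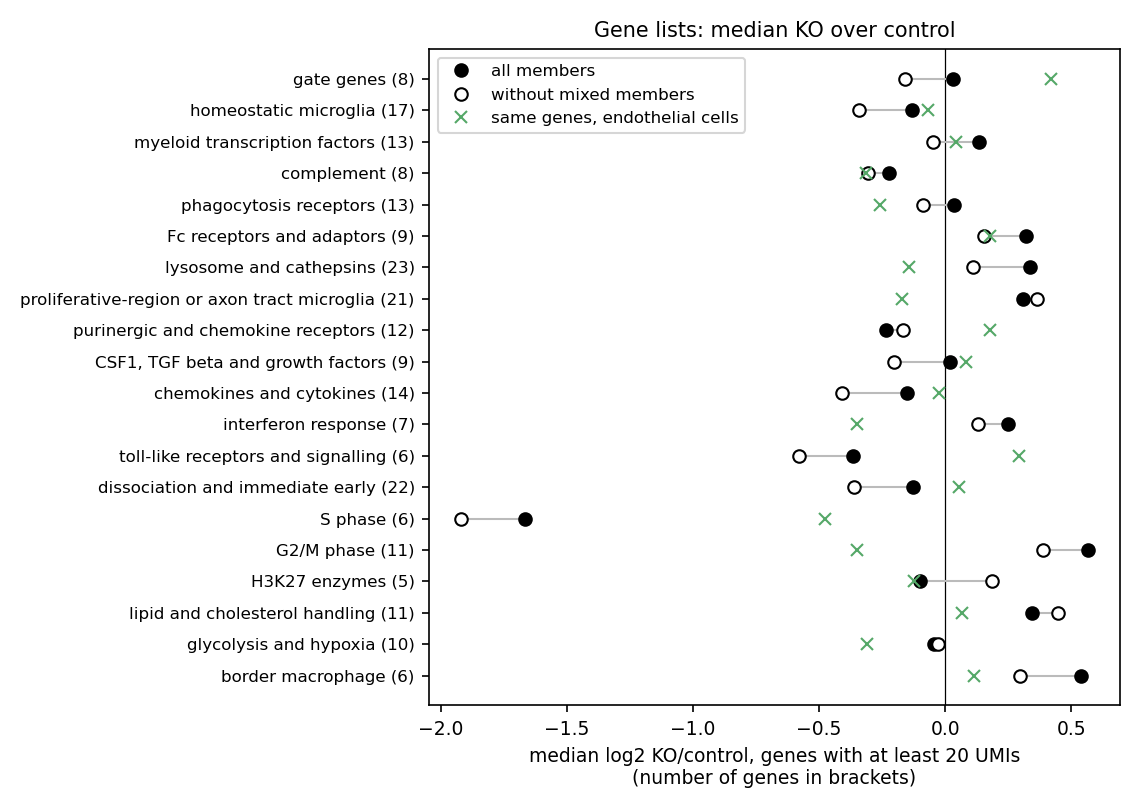
Median log2 ratio of KO to control for 20 gene lists in all microglia (filled circles) and without mixed members (open circles), and of the same genes in endothelial cells (green crosses). For microglia the S phase list lies furthest from 0, at -1.67 and -1.92, and the other lists lie between -0.58 and 0.57.

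How many homeostatic genes had lower values depended on the cells counted. Of 17 genes, 2 were at least 1.5-fold higher and 4 lower for all members (median -0.13), beside backgrounds of 13.8% and 17.4%. Without mixed members 2 of 17 were higher and 7 lower (median -0.34), beside backgrounds of 13.9% and 12.8%. The median was above 0 without dividing members (0.29) and with stricter filters (0.25). Lower were Crybb1, a crystallin of young microglia (141 and 57 UMIs, log2 ratio -1.04), Selplg, a selectin ligand (45 and 18, -1.04), and Siglech (56 and 25, -0.88). Higher were Sall1 and Rnase4. Of the complement list, 3 of 8 genes were lower, C5ar1 among them (47 and 14 UMIs, -1.45, and -1.74 without mixed members) and C3ar1 (64 and 30, -0.82). Of 6 genes of the toll-like receptor list, 1 was higher and 1 lower (median -0.37), and without mixed members 1 and 3 (median -0.58). Over all members the lower gene was Ly86, a partner of the receptor CD180, with 60 and 30 UMIs (-0.73). The higher gene was Tlr7, a sensor of single-stranded RNA, with 8 and 17 (1.30).

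Over all members, the lysosomal, phagocytosis and Fc receptor lists held a few higher genes and 0 lower ones, beside backgrounds of 13.8% and 17.4%. Of 23 lysosomal genes 3 were at least 1.5-fold higher and 0 lower (median 0.34), and without mixed members 1 and 0 (median 0.11). The lysosomal median was 0.0041 without the 2 richest Spp1 cells, -0.14 among members with Xist and no Y-linked UMI, -0.093 after thinning and -0.045 as a mean of fractions per cell. Ctsb had 732 and 863 UMIs (0.50). Of 13 phagocytosis genes 2 were higher and 0 lower (median 0.04, and 0 and 1 without mixed members), and of 9 genes of Fc receptors and their adaptors 2 and 0 (median 0.32). The list of the proliferative-region and axon tract state had 6 of 21 genes higher and 1 lower, with a median of 0.31. Without mixed members 7 of 19 were higher and 0 lower, beside backgrounds of 13.9% and 12.8%. Over all members the higher genes of this list were Spp1, Igf1, Lgals1, Lgals3 (1 and 25 UMIs), Lpl and Anxa5. Its median was 0.11 without the 2 richest Spp1 cells, -0.13 after thinning and -0.023 as a mean of fractions per cell. Its only lower gene, Fabp5 (95 and 49 UMIs, -0.69), was at 0.85 without mixed members. Of 11 genes of lipid and cholesterol handling 4 were higher and 3 lower, and of 9 without mixed members 4 and 0. Hmgcs1, an enzyme of cholesterol synthesis, had 51 and 10 UMIs (-2.03), 27 of the control UMIs in 1 cell. Glycolysis genes numbered 10, with 0 higher and 0 lower and a median of -0.05. The 5 measured enzymes and partners of H3K27 methylation had 1 higher, Rbbp7 (19 and 27 UMIs, 0.76), and 0 lower. Kdm6a, the related demethylase, had 6 UMIs in each library, and Ezh2, the methyltransferase, 12 and 8.

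Over the list of macrophage transcription factors, 3 of 13 genes were at least 1.5-fold higher and 1 lower (median 0.13), against the background of 13.8% and 17.4%. The higher genes were Sall1 (1.62, but 0.85 among members with Xist and no Y-linked UMI), Mef2c and Runx1 (19 and 25 UMIs, 0.65). Spi1, the gene of PU.1, had 122 and 96 UMIs (-0.08), Irf8 68 and 62 (0.13) and Maf 51 and 61 (0.52). Mef2c had a higher value (121 and 164 UMIs, 0.70, but 0.48 without mixed members) and Mef2a lower (47 and 22, -0.82). Interferon response genes were few: of 7 measured, Ifitm3 (5 and 18 UMIs, 13 of them in 1 cell) and Ifi27l2a (4 and 16) were higher and Bst2 (29 and 11) was lower. Antigen presentation through MHC class II was scarce, with 36 UMIs of 8 genes in control members and 32 in KO members, of which Cd74, the invariant chain, gave 16 and 20.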

How the data were processed

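Dissociated dentate gyrus cells were measured with the 10x Genomics 3′ assay, with 2 animals pooled per library and 2500 cells aimed at per condition, per the labels' protocols. The authors deposited a matrix of raw UMI counts for each library, without normalization. Per the submitters' processing notes, Cell Ranger 3.0.2, Seurat 3 and mm10 were used, in roles the notes do not give here. The matrices list 31053 genes, of which 30934 IDs were found in GENCODE M21.

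UMIs were summed per library over members (control 207586, KO 172998), and CPM ratios were taken as log2 with 0.5 UMI added, with exact conditional binomial intervals. Shares have exact Clopper-Pearson intervals and single sums exact Poisson intervals, and a count of 0 was bounded at 3 counts. Endothelial cells had at least 5 UMIs of Cldn5 and Flt1 and at most 1 gate gene, and neurons at least 3 neuron genes with 2 UMIs each. With its automatic cut-off Scrublet, run in scanpy 1.11.5, called 4 control and 7 KO doublets (0.132% and 0.356%), too few to have worked, so doublets were kept and the highest scores (0.8% per 1000 barcodes) were left out as an alternative. The members and lists were chosen with earlier results of these data known. Named were the gate genes, the 12 genes most above and most below in the KO library (at least 50 UMIs, ranked by the interval bound nearest to 1, without mitochondrial, ribosomal, haemoglobin, sex-linked genes and gene models), the 20 most above other cells, up to 6 abundant or clearly different members of each list, genes listed by name, and the genes most like Spp1. Genes in the comparisons of cell groups within the microglia, and the mixed criterion, were chosen after their values were seen. Promoters are RefSeq windows (GRCm38.p6). The ratio step was tested on simulated independent Poisson counts. These have no spread between cells, so that test does not show how the intervals perform with such spread. Python 3.11.15, scipy 1.17.1 and, for TMM scaling factors, edgeR 4.0.16 in R 4.3.3 were used.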

Additional observations from a re-analysis of the deposited data

How the results depend on the processing

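Of 154 named genes with at least 20 UMIs, 2267 ratios under an alternative could be computed, and 1939 stayed within the counting interval of the reported value. The share ratio ran from 0.880 to 1.41 over its alternatives and the dividing ratio from 1.10 to 1.26, all within their intervals. The counts of genes at least 1.5-fold higher and lower (435 and 547) became 943 and 1194 with genes of 10 UMIs, 91 and 148 with genes of 50 UMIs, 120 and 204 at 2-fold and 62 and 72 after thinning to 1000 UMIs (fewer genes tested). Lower genes numbered 342 without members with 3 or more border genes, 303 among members with Xist and no Y-linked UMI, 290 without members with 5 or more neuron UMIs and 273 without mixed members. Log2 ratios that changed sign were, without the 2 richest Spp1 cells, Spp1 (-0.76) and Ccl9 (-0.12). Without the 3 border marked cells they were Pf4 (-5.47, a value set by the added 0.5 UMI, since KO members then held 0 Pf4 UMIs) and Mrc1 (-0.78). Signs also changed, with Y-linked and Xist-free members left out, for Fabp7 (3.25), Tuba1a (0.14), Tubb3 (0.65), Stmn3 (0.90), Tubb2b (0.20), Xist (-0.44) and Fabp5 (0.75). Fabp5 was at 1.15 without members with 5 or more neuron UMIs and at 0.85 without mixed members. With stricter filters (at least 1000 genes, at most 5% mitochondrial UMIs) Ccl12 (0.92), Cxcl2 (0.88), Ccrl2 (0.058) and Ly86 (0.39) changed sign. After thinning to 1000 UMIs so did Tubb3 (0.065), Ccl12 (0.56), Fos (0.20), Xist (-0.66), Lpl (-0.039) and Egr1 (-0.25), and with the mean of fractions per cell Nsg1 (0.091) and Cks2 (-0.041). The cause was not tested, beyond the cells or UMIs each alternative leaves out. TMM scaling shifted all log2 ratios by 0.06. No paired analysis was possible because the labels give no replicate numbers and there is 1 library per genotype. Few cells limit all values: 40 and 26 cells from 2 pooled animals each, with 1 library per genotype, give no estimate of the spread between animals.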
